A study of Mus musculus with 14 samples.

Results

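Orthotopic TMPC tumours were compared with subcutaneous TM tumours, a comparison in which the place of growth and the genotype changed together. The members were the 3 libraries titled orthotopic TMPC and the 3 titled subcutaneous TM, which are 6 of 12 bulk libraries and of 14 samples in all. Both groups came from a study of gastric tumorigenesis in mice. Tumours were grown from transplants, at the organ of origin (orthotopic) or under the skin (subcutaneous), and pieces of about 1 cm3 were collected 2 months later for polyA RNA sequencing with 150 bp paired-end reads. TM and TMPC are names that the labels do not spell out, so no targeted gene could be checked, and what the extra letters stand for is not used here. The host's strain and immune status, the number of animals, the promoter or Cre behind either genotype and whether a transplant came from 1 line are not stated in the labels. The labels do not tie replicates to animals, so p-values reflect how far these libraries spread, and that spread may be technical in part or in whole. The question put to the counts was which gene programs of orthotopic TMPC lay at the level of subcutaneous TM and which did not. Site and genotype differ in every pair of libraries of these 2 groups, so their shares cannot be told apart from this comparison alone. Levels in subcutaneous TMPC, which shares the genotype of the one group and the site of the other, are given beside some results.

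The lining of the stomach is built of glands in which pit cells secrete surface mucins and gastrokines, neck cells secrete mucus and trefoil factors, chief cells store the precursor of pepsin, parietal cells pump acid and endocrine cells release hormones such as ghrelin and somatostatin. Beneath the lining lie smooth muscle and a mesenchyme with its own transcription factors, and the liver and pancreas are close by, whereas tissue under the skin borders on fat and dermis. Tumours short of oxygen stabilise the transcription factor Hif1a, whose targets include glucose transport and glycolysis. Their content of macrophages, lymphocytes and fibroblasts varies with the tissue they grow in.

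Total counts ran from 16584781 to 20964579 per library. A count was found for 17197 to 18363 genes. Levels are given as CPM over library totals adjusted by TMM factors, and on this scale 3 counts corresponded to between 0.134 and 0.201 CPM in the 6 libraries. One library of each group stood apart. In TM replicate 2 the epithelial adhesion gene Epcam was at 51.6 CPM against 470 and 540 in TM replicates 1 and 3, the plasma cell gene Jchain was at 2103 against 1.76 and 5.63, and the summed CPM of 14 adipocyte genes was 11640 against 135 and 100.4. In orthotopic replicate 3 the liver gene Alb was at 3003 CPM against 2.62 and 0.407, and 15 liver genes summed to 17970 CPM against 107 and 119. The mean correlation across genes with the other libraries of the group was 0.760 for TM replicate 2 against 0.872 and 0.866, and 0.859 for orthotopic replicate 3 against 0.915 and 0.919. The part that fat, lymphoid, liver or other bystander tissue plays in the results below was not tested. Every comparison was therefore run on all 6 libraries, on 5 without TM replicate 2 (the 5-library test), and on 4 without TM replicate 2 and orthotopic replicate 3 (the 4-library test).

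Log2 fold changes are orthotopic TMPC over subcutaneous TM, with their standard error. A gene was called higher or lower where the adjusted p of edgeR's quasi-likelihood test was under 0.05, and within 2-fold where a pair of one-sided tests placed its log2 fold change between -1 and 1 at an adjusted p under 0.05. With all 6 libraries 0 of 15445 genes (0%) were called, the smallest adjusted p being 0.0734, although 2314 genes had an unadjusted p under 0.05. On the same libraries DESeq2 called 1328 genes and limma voom 4. With all 6 libraries 4684 genes (30.3%) were called within 2-fold, and this number was 0 when TM replicate 1 or 3 or any orthotopic library was left out. Without TM replicate 2, 132 of 15977 genes (0.826%) were called, 67 of them higher (0.419%) and 65 lower (0.407%), and 6341 (39.7%) were within 2-fold. The 132 became 6 without orthotopic replicate 1 and 2 without orthotopic replicate 2. They became 0 without TM replicate 1 or 3, where 1 TM library was left and was assumed to vary like the orthotopic ones, which says nothing about stability. Without TM replicate 2 and orthotopic replicate 3, 3759 of 15767 genes (23.8%) were called, 1984 higher (12.6%) and 1775 lower (11.3%), and 8064 (51.1%) were within 2-fold. All 132 genes of the 5-library test were among the 3759, and 97 of them were among the DESeq2 calls on all 6. The 4 libraries of the last test are the most alike of their groups, so its smaller spread is that of these 4 libraries. Over all 6 libraries the groups did not overlap for 1899 genes that were higher in every orthotopic library (12.3%) and for 1941 that were lower (12.6%). The median log2 fold change over all genes tested was -0.03 with all 6 libraries and 0.02 without TM replicate 2, and the list medians below stand beside these.

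**Figure D1:**
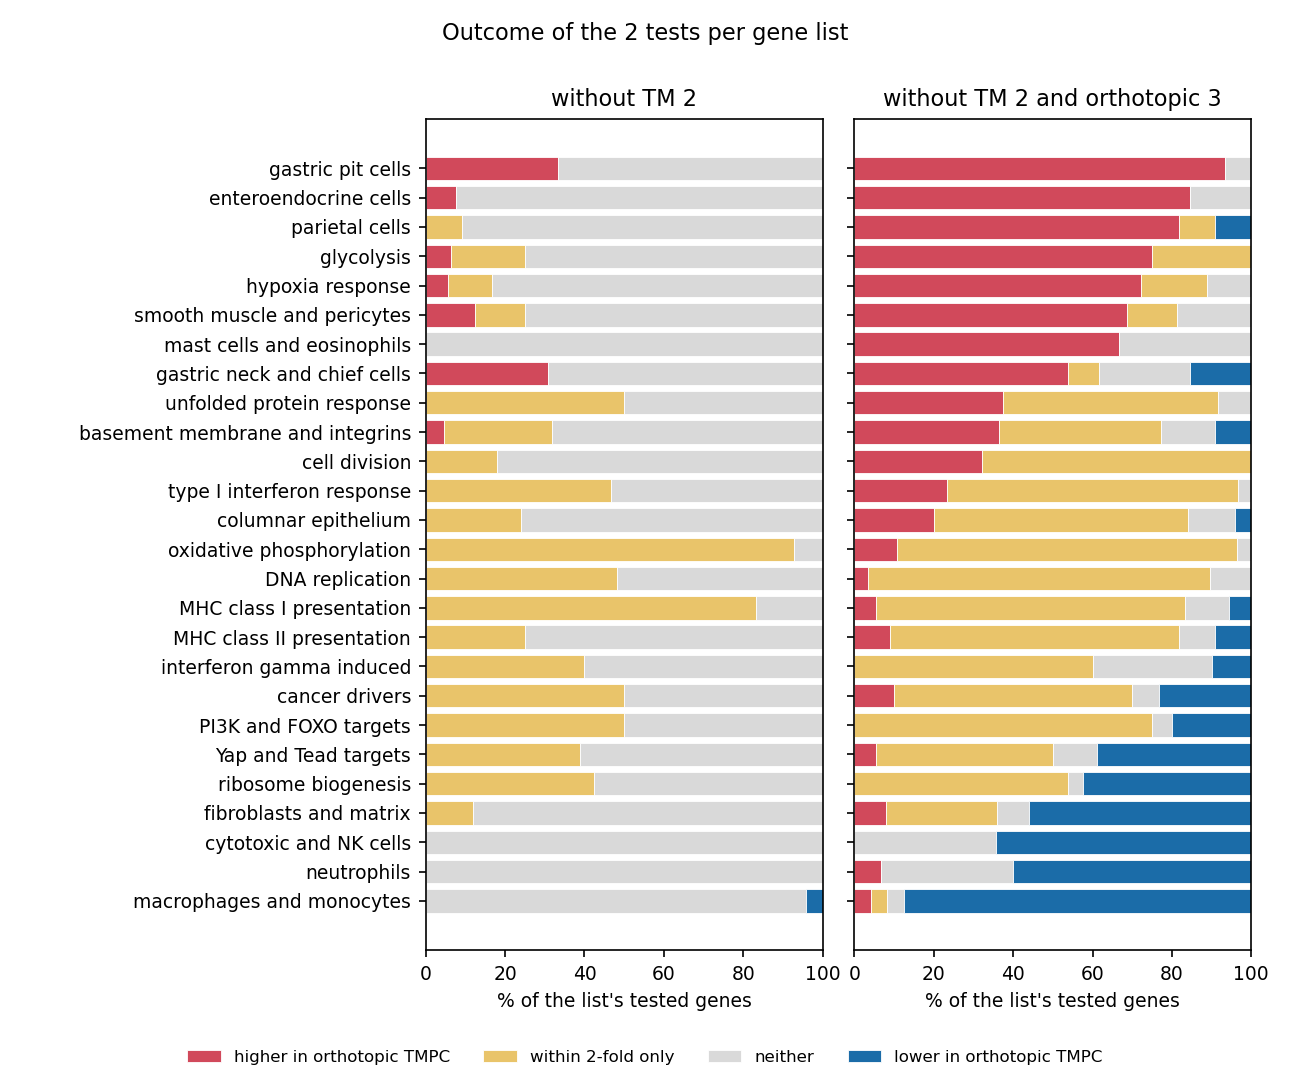
Share of each gene list's tested members, in percent, that was higher in orthotopic TMPC, lower, only within 2-fold, or neither, in the 5-library test (left) and the 4-library test (right). On the right most pit, parietal and endocrine genes are higher and most macrophage and cytotoxic genes lower, while oxidative phosphorylation and MHC class I presentation are mostly within 2-fold in both panels.

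Genes of the gastric glands were among the largest rises. Of 15 pit cell genes 5 were called higher without TM replicate 2 and 14 in the 4-library test, none was called lower in either, and 12 were higher in every orthotopic library than in every TM library. Over all genes the shares higher were 0.419%, 12.6% and 12.3%. The median log2 fold changes of the pit cell genes were 3.24 and 3.70 in the 5-library and 4-library tests. The summed pit cell level was 804, 106 and 898 CPM in TM and 6298, 8817 and 4586 in orthotopic TMPC. In subcutaneous TMPC it was 98.1, 14.1 and 75.5 CPM. In bulk tissue, more cells of a type and more RNA per cell cannot be told apart.

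Gkn1, a gastrokine secreted by surface pit cells, was at 0.319, 0 and 0.458 CPM in TM replicates 1 to 3 and at 1558, 1961 and 1308 in orthotopic TMPC. Its neighbour Gkn2 was at 0.0532, 0 and 0.412 CPM in TM and 1677, 2280 and 1605 in orthotopic TMPC. Both genes were thus near the limit of detection in every TM library and abundant in every orthotopic one, and a lack of overlap was part of the rule that chose them. The log2 fold change without TM replicate 2 was 11.98 ± 0.42 for Gkn1 (edgeR adjusted p = 0.00641) and 12.88 ± 0.89 for Gkn2 (adjusted p = 0.0228). Muc5ac, the main surface mucin, was at 7.88, 0.335 and 4.35 CPM in TM and 375, 1077 and 385 in orthotopic TMPC, a rise of 6.64 ± 0.78 (adjusted p = 0.0411). Capn9, a calpain of the digestive tract, rose from 0.106, 2.07 and 0.137 CPM in TM to 9.3, 10.8 and 11.4 in orthotopic TMPC (adjusted p = 0.0228). Psca, a surface antigen of the upper gland, was at 47.5, 0 and 55.2 CPM in TM and 549, 782 and 127 in orthotopic TMPC. It was called in the 4-library test (adjusted p = 0.000216) and not in the 5-library test (adjusted p = 0.119), its lowest orthotopic value being that of replicate 3. Muc1, a mucin shared by many epithelia, overlapped between the groups at 414, 8.83 and 546 CPM in TM and 291, 331 and 163 in orthotopic TMPC. The gastric tight junction gene Cldn18 was at 0, 0 and 1.47 CPM in TM and 287, 455 and 102 in orthotopic TMPC (4-library adjusted p = 0.000646).

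Gkn1 and Gkn2 lie side by side on chromosome 6, and the 300-base windows that hold their starts, most of each window upstream, are shown because these were the pit cell genes with the largest rise. The sequences are RefSeq's on GRCm38.p6, at chr6:87350866-87351165 on the minus strand for Gkn1 and at chr6:87373115-87373414 on the plus strand for Gkn2, and capitals mark AGATAA, a motif of the kind bound by GATA factors.
Gkn1: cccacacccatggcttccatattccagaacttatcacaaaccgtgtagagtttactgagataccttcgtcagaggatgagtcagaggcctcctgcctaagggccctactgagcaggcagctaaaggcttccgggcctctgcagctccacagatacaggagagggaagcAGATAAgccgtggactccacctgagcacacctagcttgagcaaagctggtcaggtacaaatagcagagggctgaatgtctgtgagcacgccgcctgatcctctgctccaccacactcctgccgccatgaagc
Gkn2: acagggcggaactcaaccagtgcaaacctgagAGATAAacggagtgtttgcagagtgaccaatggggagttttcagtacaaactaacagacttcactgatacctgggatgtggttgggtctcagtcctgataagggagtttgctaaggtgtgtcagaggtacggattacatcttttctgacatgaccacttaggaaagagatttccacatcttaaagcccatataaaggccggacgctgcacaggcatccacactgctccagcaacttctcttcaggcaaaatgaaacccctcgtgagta
AGATAA was searched on both strands after the values were known. It occurred in 3 of the 10 pit cell genes with a promoter in the table and in 12.7% of 27025 genes. Gata4, a GATA factor of the foregut, was at 23.8, 1.34 and 17.7 CPM in TM and 63.1, 67.9 and 32.2 in orthotopic TMPC (4-library adjusted p = 0.0017, 5-library 0.13).

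**Figure D2:**
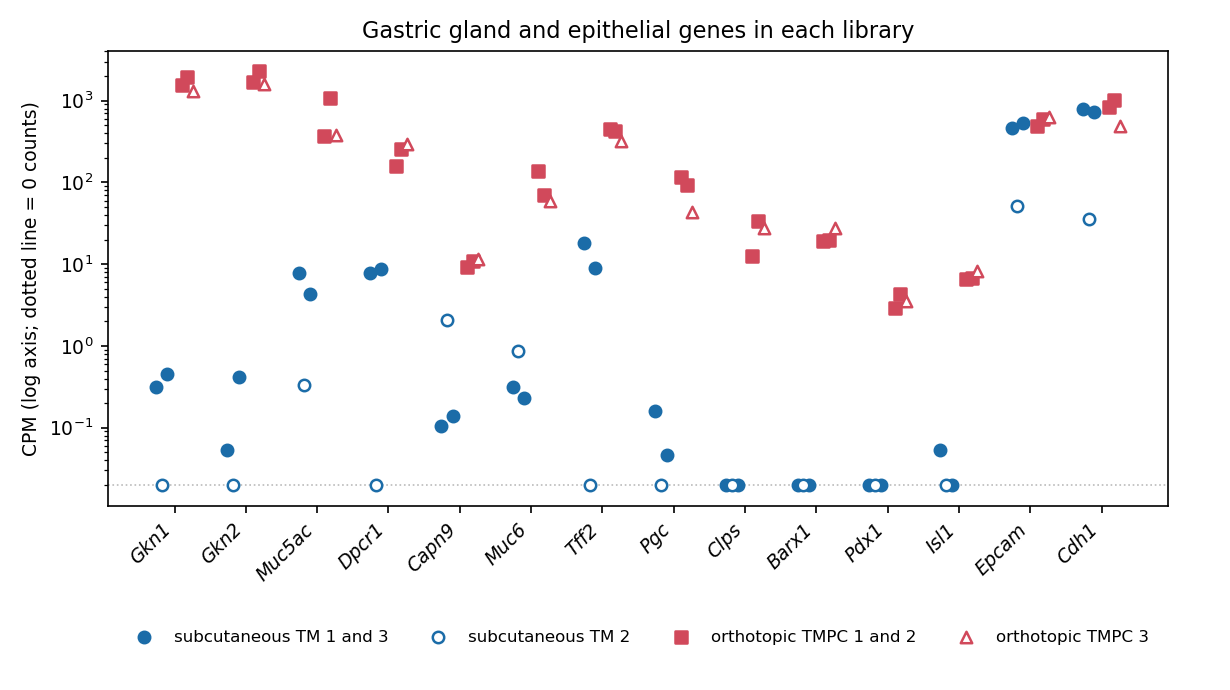
Level of 12 gastric gland and foregut genes and of the epithelial genes Epcam and Cdh1 in each of the 6 libraries, in CPM on a log axis, with 0 counts drawn on the dotted line. The genes were drawn with their values known, some having been named for lack of overlap. That the 3 orthotopic values of each drawn gastric gene lie above all TM values thus follows in part from the choice. List members that overlap, such as Muc1, Cd44 and Atp4a, are not drawn. Epcam and Cdh1 of TM replicates 1 and 3 lie beside the orthotopic values.

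Most neck and chief cell genes went in the same direction, while their summed level overlapped between the groups. It was 1078, 666.6 and 803.9 CPM in TM and 1323, 1264 and 1031 in orthotopic TMPC. Positive log2 fold changes were found for 8 of 12 tested genes with all 6 libraries and 11 of 13 without TM replicate 2. Of 13 tested neck and chief cell genes 4 were called higher in the 5-library test and 7 in the 4-library test, where 2 (Aqp5 and Slc12a2, a water channel and an ion transporter) were lower, and the list median was 4.66 and 3.69. Over all genes 0.419% and 12.6% were called higher in these tests, and 11.3% lower in the 4-library test. Muc6, the mucin of neck cells, was at 0.319, 0.87 and 0.229 CPM in TM and 137, 71.1 and 59.3 in orthotopic TMPC (log2 fold change 8.32 ± 0.62, adjusted p = 0.0228). Tff2, the trefoil factor of the same cells, was at 18, 0 and 9.07 CPM in TM and 456, 424 and 324 in orthotopic TMPC (4.89 ± 0.42, adjusted p = 0.0293). Pgc, the pepsinogen of chief cells, was at 0.16, 0 and 0.0458 CPM in TM and 118, 93.4 and 43.9 in orthotopic TMPC (9.66 ± 0.79, adjusted p = 0.0275). Clps, which encodes the lipase cofactor colipase, was at 0 counts in all TM libraries and at 12.5, 33.7 and 27.5 CPM in orthotopic TMPC, at least 449.8-fold higher when TM is set to 3 counts over the group. Colipase is also a product of the pancreas, and the 14 pancreas genes summed to 11.5, 2.68 and 7.29 CPM in TM and 25.4, 22 and 524 in orthotopic TMPC, so that orthotopic replicate 3 was highest. The part of pancreas tissue in the Clps value was not tested. The adhesion receptor Cd44, a list member also made by many other cells, overlapped at 227, 380.5 and 198 CPM in TM and 149, 179.5 and 401 in orthotopic TMPC.

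Parietal and endocrine genes differed among the orthotopic libraries, and the summed parietal level of orthotopic replicate 3 lay within the range of TM. None of 11 parietal genes passed the 5-library test, whereas 9 were higher and 1 lower in the 4-library test. Of all genes 12.6% were higher and 11.3% lower there. Atp4a, the catalytic subunit of the gastric proton pump, was at 2.5, 0.134 and 4.21 CPM in TM and 74.1, 70.2 and 2.96 in orthotopic TMPC. Atp4b, its partner subunit, was at 0.106, 0.134 and 0 CPM in TM and 50.7, 50.4 and 2.46 in orthotopic TMPC. In orthotopic replicate 3 Atp4a lay within the range of TM, while Atp4b lay below the other orthotopic libraries and above TM. The list's summed level was 1906, 1441 and 349 CPM over the orthotopic libraries against 680.4, 92.3 and 676 in TM. Of 13 tested endocrine genes 1 was called in the 5-library test and 11 in the 4-library test, all higher, with medians of 4.07 and 4.18. Of all genes 0.419% and 12.6% were called higher in these tests. Ghrl, which encodes ghrelin, was at 1.44, 0.602 and 1.1 CPM in TM and 278, 209 and 6.08 in orthotopic TMPC (4-library adjusted p = 3.35e-05). Sst, which encodes somatostatin, had 1 count over the TM libraries and was at 46.4, 30.2 and 5.41 CPM in orthotopic TMPC, a ratio of 1607 with a 95% counting interval from 288.1 to 63520. The pan-endocrine granule gene Chga was at 2.71, 0 and 1.83 CPM in TM and 57.5, 36.5 and 20.4 in orthotopic TMPC (5-library adjusted p = 0.052). Isl1, the one endocrine gene called without TM replicate 2 (adjusted p = 0.0411), is a transcription factor also made in stomach mesenchyme. It was at 6.58, 6.79 and 8.26 CPM in orthotopic TMPC and had 1 count over the TM libraries, a ratio of 396.5 with a 95% counting interval from 70.8 to 15700. In subcutaneous TMPC Isl1 was at 6.26, 1.55 and 0.0516 CPM, the highest being close to the orthotopic level.

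Among transcription factors of the foregut, a few were undetected in TM and others overlapped between the groups. Of 16, 2 were called higher in the 5-library test, and 6 higher and 3 lower in the 4-library test, with a median of 0.21 and 0.45. Over all genes these shares were 0.419%, 12.6% and 11.3%. Barx1, a homeobox factor of stomach mesenchyme, had 0 counts in TM and was at 19.4, 19.5 and 27.6 CPM in orthotopic TMPC, at least 403.9-fold higher (adjusted p = 0.0228). Pdx1, the homeobox factor of the antrum, duodenum and pancreas, also had 0 counts in TM and was at 2.94, 4.35 and 3.57 CPM, at least 66.97-fold higher (adjusted p = 0.0411). Sox2 and Foxa1, present in TM replicates 1 and 3, overlapped with orthotopic TMPC, whereas 6 of the 16 factors, Gata4 among them, were higher in every orthotopic library than in every TM library (12.3% of all genes). Sox2, a factor of foregut epithelium, was at 184, 0 and 245 CPM in TM and 284, 279 and 142 in orthotopic TMPC (5-library difference 0.13 ± 0.35, adjusted p = 0.851), and in the 4-library test it was within 2-fold (adjusted p = 0.0188). Foxa1, a pioneer factor of endodermal epithelium, was at 364, 27.3 and 304 CPM in TM and 348, 348 and 167 in orthotopic TMPC and was likewise within 2-fold in the 4-library test (adjusted p = 0.00485). Intestinal genes gave no 5-library call and 5 of 10 higher in the 4-library test, against 12.6% of all genes. Among them was the chloride channel Cftr at 19, 0.468 and 13.9 CPM in TM and 58.8, 66.6 and 14.8 in orthotopic TMPC.

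Smooth muscle and pericyte genes had a median above 0, with few of them called in the 5-library test. Tcf21, a transcription factor of visceral mesenchyme chosen here after its values were seen, had 0 counts in every TM library and was at 5.38, 6.29 and 7.87 CPM in orthotopic TMPC, at least 118.8-fold higher (adjusted p = 0.0411). Foxf1, a forkhead factor of gut mesenchyme likewise chosen, was at 0.692, 11.7 and 1.24 CPM in TM and 11.8, 15.9 and 19 in orthotopic TMPC (log2 fold change 4.00 ± 0.46, adjusted p = 0.0411). Of 16 smooth muscle and pericyte genes 2 were called higher without TM replicate 2 and 11 in the 4-library test, with medians of 2.09 and 1.78. The shares called higher over all genes were 0.419% and 12.6%. Des, the muscle intermediate filament desmin, was at 5.38, 80.8 and 6.0 CPM in TM and 50.3, 61.5 and 109 in orthotopic TMPC (log2 fold change 3.69 ± 0.42, adjusted p = 0.0411). Abcc9, a potassium channel subunit of pericytes and smooth muscle, was at 12.9, 122 and 11 CPM in TM and 70.6, 60.4 and 85.5 in orthotopic TMPC (2.59 ± 0.22, adjusted p = 0.0289). In both cases TM replicate 2 lay inside or above the orthotopic range, and the 6-library log2 fold changes were 1.26 ± 1.12 and 0.56 ± 0.97. Actg2, the enteric smooth muscle actin, was at 5.22, 1.47 and 8.66 CPM in TM and 50.3, 62.8 and 153 in orthotopic TMPC without overlap (5-library adjusted p = 0.0725, 4-library 0.000741). Notch3, a receptor of mural cells, was within 2-fold at 79.3, 82.6 and 88.7 CPM in TM and 57.8, 73.6 and 61.6 in orthotopic TMPC (adjusted p = 0.0204). The Wnt antagonist Sfrp1, also chosen after its values were seen, was at 33.9, 84.2 and 44 CPM in TM and 337, 293 and 392 in orthotopic TMPC (3.13 ± 0.24, adjusted p = 0.0228).

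Among the largest falls were 3 genes of transcription control and lipid transport, Tbx15, Apod and Irx2. Tbx15, a T-box factor of dermal and subcutaneous mesenchyme, was at 19.4, 27.6 and 22.1 CPM in TM and 0.089, 0.0906 and 0 in orthotopic TMPC (log2 fold change -8.24 ± 0.71, adjusted p = 0.0293). Apod, a lipid carrier made by skin fibroblasts, was at 49.7, 151 and 59.4 CPM in TM and 4.98, 5.79 and 7.42 in orthotopic TMPC (-3.17 ± 0.24, adjusted p = 0.0228). Irx2, an Iroquois homeobox factor, was at 61, 17.3 and 70.7 CPM in TM and 10.1, 8.24 and 10.7 in orthotopic TMPC (-2.77 ± 0.19, adjusted p = 0.0228). The lack of overlap over the 6 libraries in these 3 genes was part of the rule that chose them. In subcutaneous TMPC Tbx15 was at 2.81, 6.31 and 5.57 CPM, Apod at 2.05, 3.58 and 1.55 and Irx2 at 15.7, 23.6 and 25.2. Apod was thus lower in every subcutaneous TMPC library than in every orthotopic one. Krtdap, a secreted protein of differentiating keratinocytes, was at 41, 0 and 216 CPM in TM and 0.267, 0.181 and 0.167 in orthotopic TMPC (adjusted p = 0.0411), and Klk6, a kallikrein protease, had 1 count over the orthotopic libraries, the TM to orthotopic ratio being 2348 with a 95% counting interval from 420.9 to 92770. Both were chosen after their values were seen, and both were at 0 or near it in TM replicate 2, so they separate only TM replicates 1 and 3 from orthotopic TMPC. Of 21 tested squamous genes none was called in the 5-library test, and the 4-library shares over all genes were 12.6% higher and 11.3% lower. The 4-library test called 5 higher, among them the basal keratin Krt5 (526, 9.77 and 609.6 CPM in TM and 1127, 849 and 279 in orthotopic TMPC), and 7 lower, among them the suprabasal keratins Krt1 (14.2, 0.0669 and 55.3 CPM in TM and 1.91, 1.68 and 0.0558 in orthotopic TMPC) and Krt10 (26.9, 1.41 and 95.2 CPM in TM and 3.69, 5.39 and 6.53 in orthotopic TMPC).

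**Figure D3:**
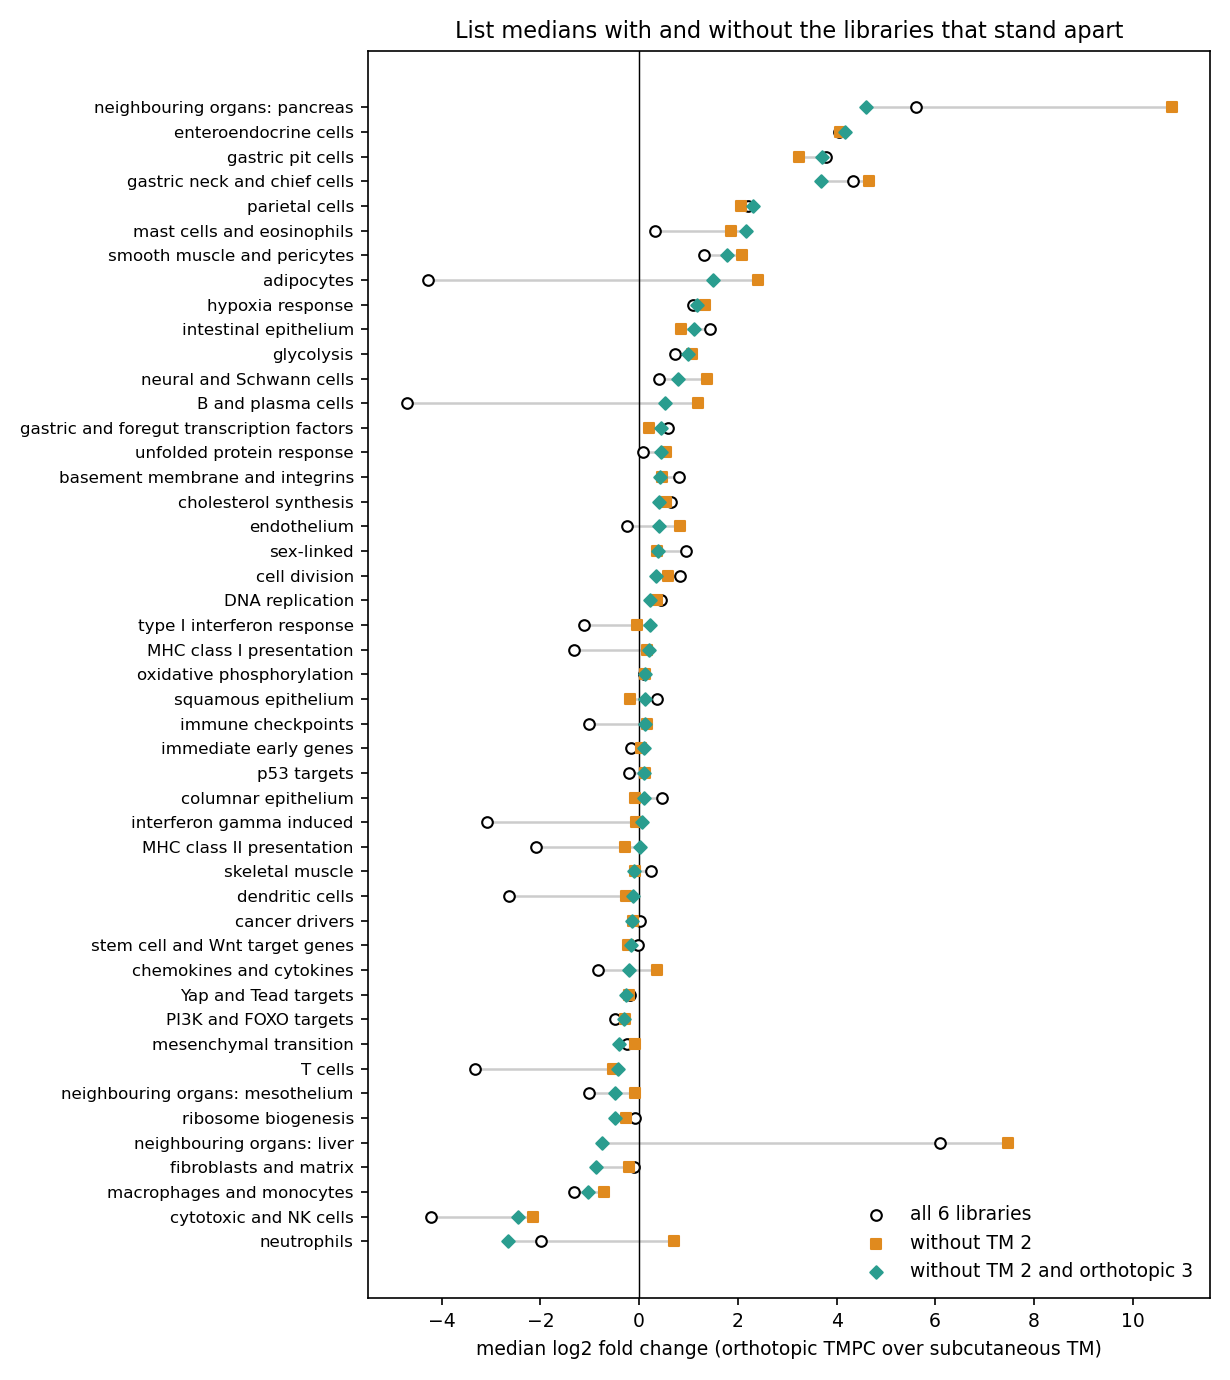
Median log2 fold change of each gene list, orthotopic TMPC over subcutaneous TM, with all 6 libraries, without TM replicate 2, and without TM replicate 2 and orthotopic replicate 3. The interferon and MHC lists move from well below 0 to about 0 once TM replicate 2 is left out, and the gastric gland lists stay above 2 in the 3 tests.

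Glycolysis and hypoxia genes lay above TM. Of 16 tested glycolysis genes 1 was called higher without TM replicate 2 and 12 in the 4-library test, none lower, with medians of 1.08 and 0.98, beside 0.419% and 12.6% of all genes called higher. Of 18 hypoxia response genes 1 and 13 were called higher, with medians of 1.34 and 1.18. The summed glycolysis level was 4077, 6642 and 4895 CPM in TM, 9271, 7317 and 10600 in orthotopic TMPC and 11640, 18140 and 21580 in subcutaneous TMPC. Every orthotopic library was thus above every TM library and below every subcutaneous TMPC library. The summed hypoxia level was 1581, 2461 and 1501 CPM in TM and 4405, 2516 and 3556 in orthotopic TMPC, with orthotopic replicate 2 close to TM replicate 2.

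Ddit4, a stress-induced inhibitor of mTOR signalling, was at 44.9, 50.9 and 70.7 CPM in TM and 275, 238 and 316 in orthotopic TMPC (log2 fold change 2.25 ± 0.27, adjusted p = 0.0416). Slc16a3, the lactate exporter MCT4, was at 17.4, 78.2 and 22.4 CPM in TM and 70.5, 60.8 and 88.3 in orthotopic TMPC (1.88 ± 0.23, adjusted p = 0.0445), TM replicate 2 lying within the orthotopic range. Ldha, which makes lactate, was at 436, 681 and 554 CPM in TM and 1263, 943 and 1543 in orthotopic TMPC, with no overlap. Pgk1, a glycolytic kinase, was at 256, 413 and 333 CPM in TM and 1018, 522 and 984 in orthotopic TMPC, again with no overlap. Both passed only the 4-library test (adjusted p = 0.01 and 0.0196). Car9, a carbonic anhydrase induced by Hif1a, was at 7.93, 2.14 and 9.3 CPM in TM and 131, 67.5 and 36.4 in orthotopic TMPC (4-library adjusted p = 0.000741). Egln3, the hydroxylase that feeds back on Hif1a, was at 95.7, 16.8 and 112 CPM in TM and 1073, 389 and 398 in orthotopic TMPC (adjusted p = 0.00481). Members that showed no such difference were Gpi1, the second enzyme of glycolysis, at 378, 421 and 391 CPM in TM and 439.5, 349.7 and 453 in orthotopic TMPC, and the Myc antagonist Mxi1 at 94.6, 40.9 and 85 CPM in TM and 108, 107 and 74.4 in orthotopic TMPC, both within 2-fold in the 5-library test (adjusted p = 0.0136 and 0.0161).

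ACGTG, the core of the element bound by Hif factors, was searched on both strands of the same promoter windows. It occurred in 12 of 17 glycolysis genes and 13 of 16 hypoxia genes with a promoter, and in 21.8% of 27025 genes. The windows of Slc16a3 (chr11:120948817-120949116, plus strand) and Ddit4 (chr10:59951721-59952020, minus strand) are shown, being the 1 gene of each list called without TM replicate 2, with ACGTG in capitals (RefSeq, GRCm38.p6).
Slc16a3: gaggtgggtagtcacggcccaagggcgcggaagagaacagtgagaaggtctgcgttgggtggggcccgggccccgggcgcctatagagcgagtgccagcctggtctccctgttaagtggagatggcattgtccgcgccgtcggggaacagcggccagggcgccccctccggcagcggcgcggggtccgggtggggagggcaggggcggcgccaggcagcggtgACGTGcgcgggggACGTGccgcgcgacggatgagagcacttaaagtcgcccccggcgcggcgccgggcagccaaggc
Ddit4: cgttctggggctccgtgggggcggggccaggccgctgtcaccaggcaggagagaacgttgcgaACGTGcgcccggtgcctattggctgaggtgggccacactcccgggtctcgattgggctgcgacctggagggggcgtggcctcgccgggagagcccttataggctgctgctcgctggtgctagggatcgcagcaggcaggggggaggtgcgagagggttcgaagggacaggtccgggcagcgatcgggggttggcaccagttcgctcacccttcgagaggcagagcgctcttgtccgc
A match is a description of these letters and not evidence of binding. ACGTG is part of the E-box CACGTG, so that every CACGTG is counted as an ACGTG too.

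Genes of mitochondrial respiration lay mostly within 2-fold of TM. Of 28 nuclear genes of oxidative phosphorylation 25 were within 2-fold with all 6 libraries and 26 without TM replicate 2, against 30.3% and 39.7% of all genes, and none was called in either. The summed level was 4531, 5357 and 4941 CPM in TM and 4955, 5503 and 5259 in orthotopic TMPC, which overlap, and 6519, 7467 and 8792 in subcutaneous TMPC. Ndufb8, a subunit of complex I, was at 56.5, 85.1 and 73.4 CPM in TM and 62.1, 73.1 and 65 in orthotopic TMPC (within 2-fold, adjusted p = 0.0127).

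Genes of MHC class I presentation were mostly within 2-fold of TM once TM replicate 2 was left out, and interferon response genes were so at a share nearer to that of all genes. Of 18 tested genes of MHC class I presentation 15 were within 2-fold in the 5-library test, where the share over all genes was 39.7%, and 2 with all 6, the median moving from -1.32 to 0.16. B2m, the invariant chain of MHC class I, was at 697, 4241 and 706 CPM in TM and 832, 827 and 848 in orthotopic TMPC (within 2-fold, adjusted p = 0.013). Psmb10, a subunit of the immunoproteasome, was at 45.2, 279 and 54 CPM in TM and 58.2, 46.5 and 48.4 in orthotopic TMPC (adjusted p = 0.0127). For both genes TM replicate 2 was above every other library. Of 30 type I interferon genes 14 were within 2-fold in the 5-library test and 24 in the 4-library test, where 7 were called higher, and the median was -1.12, -0.05 and 0.21 in the 3 tests. The 4-library test placed 51.1% of all genes within 2-fold and called 12.6% higher. The summed type I interferon level was 2180, 10700 and 2079 CPM in TM and 2370, 2462 and 1431 in orthotopic TMPC, and 584, 425 and 362 in subcutaneous TMPC. Oas1a, an antiviral RNA sensor, was at 54.8, 0 and 45.1 CPM in TM and 109, 126 and 4.52 in orthotopic TMPC, so that orthotopic replicate 3 was lowest of the orthotopic libraries. Genes induced by interferon gamma gave 8 of 20 within 2-fold and a median of -0.07 without TM replicate 2, against -3.09 with it, and MHC class II genes 3 of 12 and -0.28, against -2.09.

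**Figure D4:**
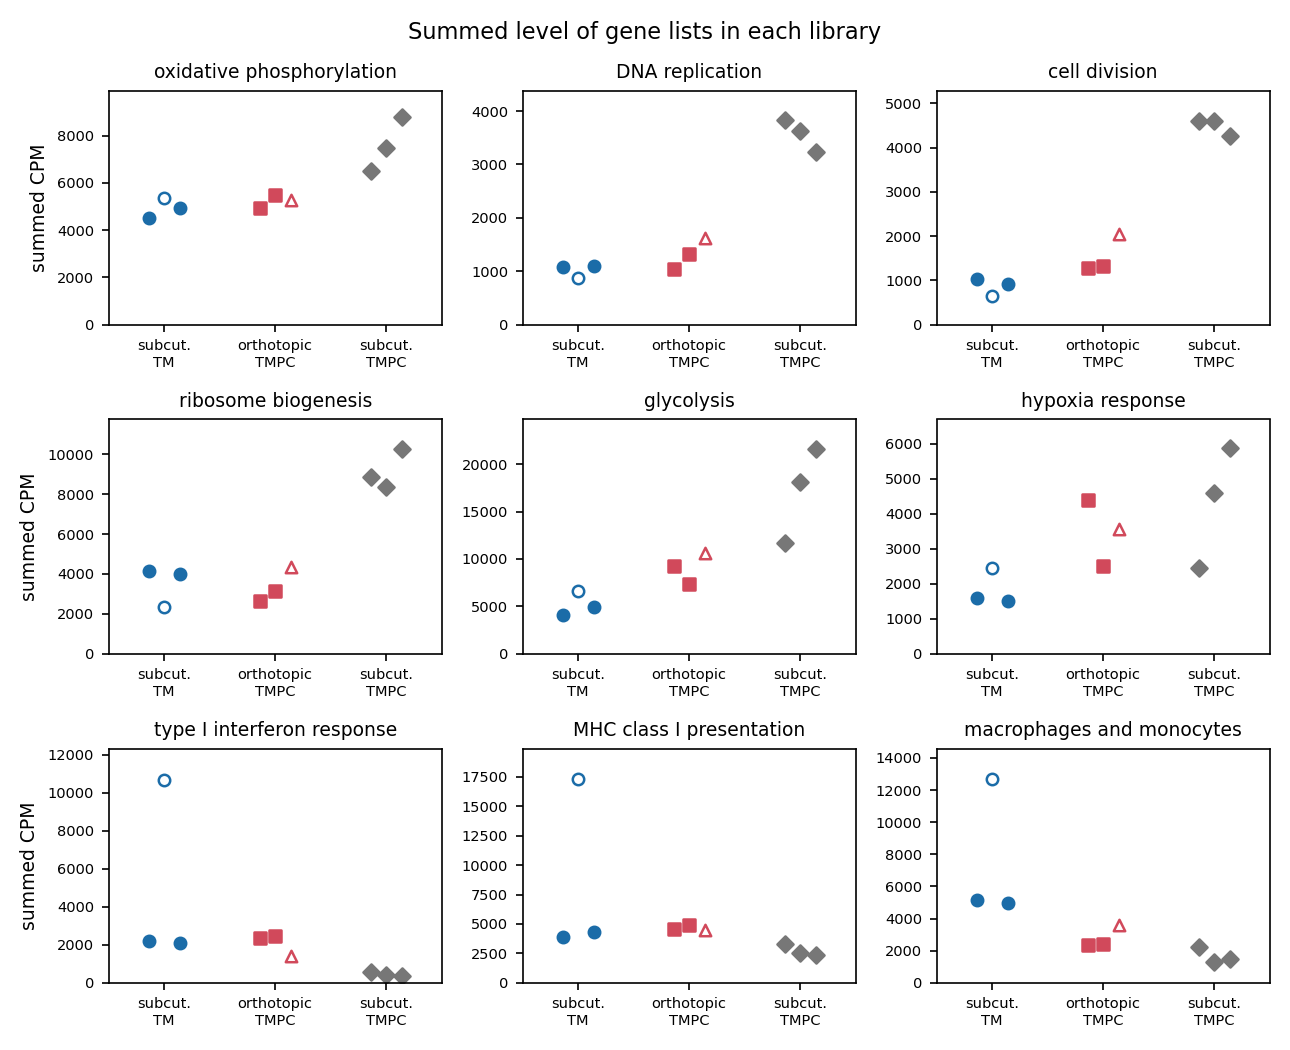
Summed CPM of 9 gene lists in each library of subcutaneous TM, orthotopic TMPC and subcutaneous TMPC, 3 libraries each. Open circles are TM replicate 2 and open triangles orthotopic replicate 3. Oxidative phosphorylation and MHC class I presentation of every orthotopic library lie slightly above TM replicates 1 and 3, and DNA replication lies near or above them. Glycolysis lies between the subcutaneous groups, and macrophage genes lie below TM.

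Cell division genes lay slightly above TM in the orthotopic libraries and far below subcutaneous TMPC. None of 28 cell division genes was called in the 5-library test, 5 were within 2-fold, and 18 were higher in every orthotopic library than in every TM library, against 12.3% of all genes. In the 4-library test 9 were higher and 23 within 2-fold, some being both, against 12.6% and 51.1% of all genes. In the 5-library test 39.7% of all genes were within 2-fold. The medians of the cell division genes were 0.59 and 0.35 in the 5-library and 4-library tests. The summed level was 1042, 649.5 and 930 CPM in TM and 1272, 1329 and 2053 in orthotopic TMPC against 4593, 4612 and 4269 in subcutaneous TMPC. Plk1, a mitotic kinase, was at 44.9, 14.1 and 37.1 CPM in TM and 51, 53.1 and 52.3 in orthotopic TMPC (within 2-fold, adjusted p = 0.0152), and Top2a, the topoisomerase of dividing cells, was at 135, 89.3 and 111 CPM in TM and 189, 179 and 296 in orthotopic TMPC (4-library adjusted p = 0.0382). Of 29 DNA replication genes 14 were within 2-fold in the 5-library test and 25 in the 4-library test, with medians of 0.37 and 0.22. Over the 6 libraries 11 were higher in every orthotopic library than in every TM library, against 12.3% of all genes, and 0 were lower. The 4-library test gave 1 call, Cdc6, a licensing factor at 6.6, 8.83 and 6.96 CPM in TM and 13.9, 15.3 and 18.8 in orthotopic TMPC (adjusted p = 0.0167). Mcm6, a subunit of the replicative helicase, was at 109.7, 46.4 and 102 CPM in TM and 89.9, 115 and 119.7 in orthotopic TMPC (within 2-fold, adjusted p = 0.0127).

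Myc and part of the ribosome biogenesis genes were called lower in the 4-library test and not in the 5-library test. Myc, the transcription factor that drives growth genes, was at 469, 78.2 and 466 CPM in TM and 70.5, 94.4 and 161 in orthotopic TMPC. TM replicates 1 and 3 were above all orthotopic libraries and TM replicate 2 was among them. The log2 fold change was -2.11 ± 0.36 without TM replicate 2 (adjusted p = 0.0719, not called) and -2.50 ± 0.20 in the 4-library test (adjusted p = 0.000475). In subcutaneous TMPC Myc was at 874, 784 and 904 CPM. Of 26 ribosome biogenesis genes none was called in the 5-library test and 11 were within 2-fold, a share near the 39.7% of all genes. The 4-library test called 11 lower, 0 higher and 15 within 2-fold, against 11.3%, 12.6% and 51.1% of all genes. The summed level was 4149, 2335 and 4022 CPM in TM and 2658, 3165 and 4363 in orthotopic TMPC, orthotopic replicate 3 being the highest of the 6. Gnl3, the nucleolar protein nucleostemin, was at 99.1, 71.1 and 103 CPM in TM and 41.5, 47.1 and 96.9 in orthotopic TMPC (4-library adjusted p = 0.00257), and Bop1, a factor of large subunit assembly, was within 2-fold at 51.2, 49.7 and 53.9 CPM in TM and 52.5, 60.6 and 62.9 in orthotopic TMPC (adjusted p = 0.0127).

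No cancer driver gene was called in the 5-library test. Of 30 such genes 8 were within 2-fold with all 6 libraries, 15 without TM replicate 2 and 19 in the 4-library test, where 3 were higher and 7 lower. The shares over all genes were 30.3%, 39.7% and 51.1% within 2-fold, and 12.6% higher and 11.3% lower in the 4-library test. Trp53 was at 52, 79.4 and 60.5 CPM in TM and 66.4, 55.7 and 74.6 in orthotopic TMPC (within 2-fold in the 5-library test, adjusted p = 0.0157). Apc, Arid1a and Rb1 were also within 2-fold (adjusted p = 0.0216, 0.0156 and 0.0309). Neither a difference nor a level within 2-fold could be called for Cdkn2a, at 131, 12.1 and 177 CPM in TM and 119, 228 and 77.5 in orthotopic TMPC, in the 5-library test. Smad4, the common mediator of TGF-beta signalling, was at 172, 87.3 and 141 CPM in TM and 84, 101 and 106 in orthotopic TMPC and was called lower only in the 4-library test (adjusted p = 0.0213). Ccne1, which encodes cyclin E1, was at 4.95, 15 and 5.59 CPM in TM and 11.3, 11.1 and 17.2 in orthotopic TMPC and was called higher only there (adjusted p = 0.026).

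General epithelial genes overlapped between the groups, with TM replicate 2 far below all other libraries. Of 25 columnar epithelial genes 6 were within 2-fold in the 5-library test and 16 in the 4-library test, where 5 were higher and 1 lower. Over all genes 39.7% and 51.1% were within 2-fold, and the 4-library test called 12.6% higher and 11.3% lower. The summed columnar level was 7771, 466 and 8213 CPM in TM and 10770, 12150 and 6579 in orthotopic TMPC. Epcam was at 469.9, 51.6 and 540.2 CPM in TM and 485, 594 and 635 in orthotopic TMPC (within 2-fold, adjusted p = 0.016). Cdh1, the adherens junction cadherin, was at 801, 36.2 and 728 CPM in TM and 827, 1006 and 486 in orthotopic TMPC (adjusted p = 0.0373). Krt8, a keratin of simple epithelia, was above TM in every orthotopic library, at 757, 46.4 and 825 CPM in TM and 2043, 2424 and 1419 in orthotopic TMPC (4-library adjusted p = 0.00218). Lama3, a laminin chain of epithelial basement membranes, was the 1 basement membrane gene of 22 called higher in the 5-library test, at 63.6, 6.69 and 62.1 CPM in TM and 271, 284 and 254 in orthotopic TMPC (log2 fold change 2.10 ± 0.15, adjusted p = 0.0228). Over all genes 0.419% were called higher in that test. In the basement membrane list 6 genes were within 2-fold in the 5-library test, and the 4-library test called 8 higher and 2 lower.

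Most macrophage genes lay below TM in the orthotopic libraries. Of 24, 1 (Cx3cr1) was called lower in the 5-library test, against 0.407% of all genes. In the 4-library test 21 were called lower and 1 higher, against 11.3% and 12.6% of all genes. Over all 6 libraries 14 were lower in every orthotopic library than in every TM library, against 12.6% of all genes. The list median was -1.33, -0.70 and -1.04 in the 3 tests. The summed level was 5181, 12690 and 4961 CPM in TM and 2360, 2438 and 3625 in orthotopic TMPC, without overlap in the sum, and 2210, 1288 and 1500 in subcutaneous TMPC. The mean log2(CPM + 0.5) over the list did overlap, orthotopic replicate 3 being at 6.42 and TM replicates 1 and 3 at 6.33 and 6.42. Cx3cr1, the fractalkine receptor of monocytes and resident macrophages, was at 132, 3.55 and 112 CPM in TM and 29, 33.7 and 44.1 in orthotopic TMPC (log2 fold change -1.78 ± 0.21, adjusted p = 0.0415), TM replicate 2 lying below the orthotopic libraries. Adgre1, which encodes F4/80, was at 301, 140.1 and 258 CPM in TM and 34.5, 42.3 and 115 in orthotopic TMPC (5-library adjusted p = 0.122, 4-library 0.000216). The complement gene C1qa, made by tissue macrophages, was at 339.6, 781 and 404 CPM in TM and 238, 196 and 307 in orthotopic TMPC (4-library adjusted p = 0.0242). Marco, a scavenger receptor, went the other way in the 4-library test at 0.0532, 127 and 0.458 CPM in TM and 2.31, 3.67 and 25.8 in orthotopic TMPC (adjusted p = 0.0184).

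Genes of other immune cells gave no call in the 5-library test. Of 14 tested cytotoxic and natural killer genes none was called in the 5-library test and 9 were lower in the 4-library test, against 11.3% of all genes. Over the 6 libraries 11 were lower in every orthotopic library than in every TM library, against 12.6% of all genes. Gzmb, a granzyme, was at 2.77, 67.8 and 3.99 CPM in TM and 0.489, 0.181 and 0.948 in orthotopic TMPC (4-library adjusted p = 0.00894), and these levels are low outside TM replicate 2. The median of neutrophil genes depended on both libraries that stood apart. S100a8, a calgranulin of neutrophils, was at 18.1, 1164 and 41.6 CPM in TM and 3.29, 3.17 and 247 in orthotopic TMPC, and the list's median was -2.0 with all 6 libraries, 0.71 in the 5-library test and -2.65 in the 4-library test, where 9 of 15 genes were lower and 1 higher. Mast cell and eosinophil genes were higher in the 4-library test for 8 of 12, against 12.6% of all genes. However, TM replicate 2 held the highest summed level, the values being 38.3, 456 and 64.8 CPM in TM and 205, 209 and 162 in orthotopic TMPC. Mcpt2, a protease of mucosal mast cells, was at 0.0532, 0 and 0.366 CPM in TM and 16.4, 63.2 and 2.12 in orthotopic TMPC (adjusted p = 0.002).

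Fibroblast and matrix genes were not called in the 5-library test. In the 4-library test 14 of 25 were lower and 2 higher, against 11.3% and 12.6% of all genes. The summed level was 22710, 5921 and 27280 CPM in TM and 13830, 14500 and 34740 in orthotopic TMPC, so that orthotopic replicate 3 exceeded TM. Col1a1, a chain of type I collagen, was at 4265, 403 and 5479 CPM in TM and 1806, 1945 and 4850 in orthotopic TMPC (4-library adjusted p = 0.00397, 5-library 0.396). Postn, a matrix protein of activated fibroblasts, was at 906, 101 and 850.5 CPM in TM and 149.9, 182 and 591 in orthotopic TMPC (4-library adjusted p = 0.000426). Pdgfrb, a receptor of stromal cells, was within 2-fold at 81.9, 119 and 84.9 CPM in TM and 73.6, 73.4 and 119.5 in orthotopic TMPC (5-library adjusted p = 0.026).

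**Figure D5:**
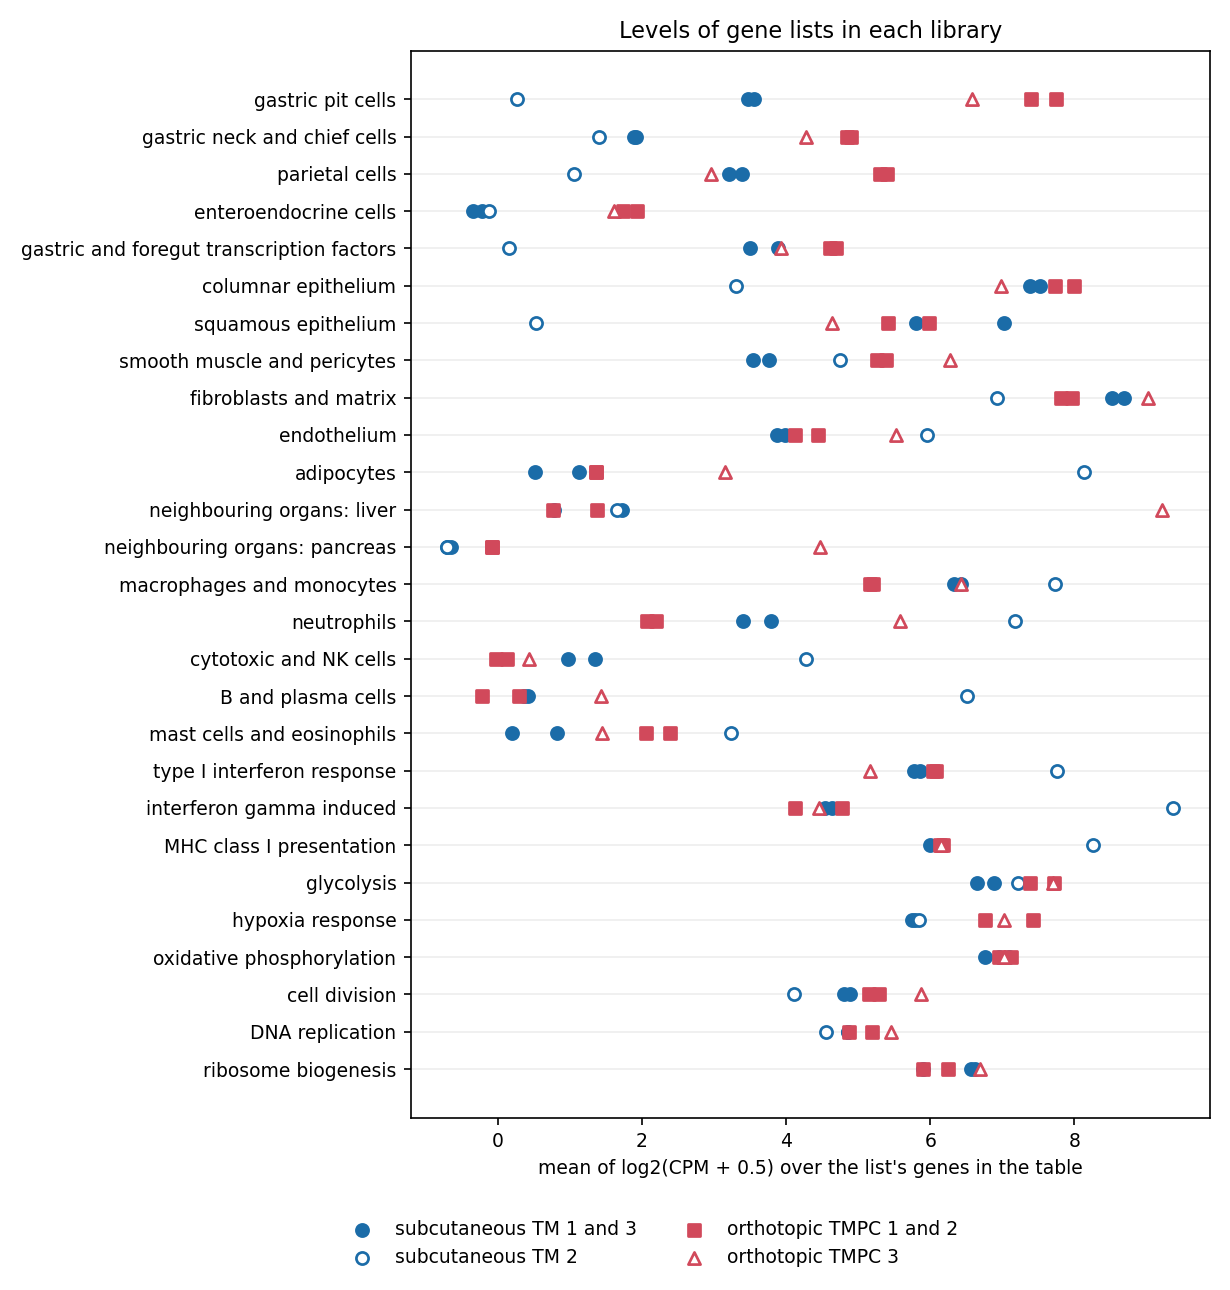
Mean log2(CPM + 0.5) over each gene list in each of the 6 libraries. TM replicate 2 (open circles) lies apart from TM replicates 1 and 3 for epithelial, adipocyte, interferon and immune lists, and orthotopic replicate 3 (open triangles) for the liver, pancreas, parietal and neutrophil lists.

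Xist, the noncoding RNA of the inactive X chromosome, was called lower in orthotopic TMPC. It was at 305, 1392 and 192 CPM in TM and 2.31, 0.362 and 0.223 in orthotopic TMPC (log2 fold change -7.97 ± 0.99, adjusted p = 0.0445). Kdm5d, a gene of the Y chromosome, was at 27.4, 0 and 28.5 CPM in TM and 33.3, 39.2 and 28.2 in orthotopic TMPC. TM replicates 1 and 3 thus held both RNAs, TM replicate 2 only Xist, and the orthotopic libraries the Y-linked gene with little Xist. In subcutaneous TMPC Xist was at 0.351, 0.107 and 13.5 CPM, also below every TM library, and Kdm5d at 33.7, 2.62 and 26.5. The labels do not give the sex of hosts and donors, and the part of sex in the other results was not tested.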

How the data were processed

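PolyA RNA from 6 bulk libraries was compared, 3 of orthotopic TMPC and 3 of subcutaneous TM, with levels of 3 of subcutaneous TMPC given beside them. Groups and replicate numbers came from the sample titles. The authors deposited whole-number counts per gene in 2 tables, beside a normalized signal that, per the file headers, DESeq2 made. The submitters' processing notes name STAR 2.6.0 as a tool and mm10 as the build. No label or header names the read counter, annotation or strand setting, so levels of near-identical or antisense genes (H2, Oas, Klk and Xist among them) are uncertain. The tables were joined by position with the symbols of the orthotopic table, since those of the other are out of step from entry 12291. After the join, 24417 of 24417 genes matched counts to the deposited signal times a size factor within 0.01 reads. The reference names held 23078 of 23104 Ensembl identifiers, and 0 entries lacked a gene. No 2 libraries of a group were duplicates, since chi-square per degree of freedom was 28.4 to 429.

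The main test was that of edgeR 4.0.16 (R 4.3.3) on the counts (glmQLFit, glmQLFTest, TMM, filterByExpr), with Benjamini-Hochberg adjustment over all genes tested and a threshold of 0.05. It had 4 residual degrees of freedom, or 3 without TM replicate 2, and fewer still in the 4-library test. The standard error was the log2 fold change over the square root of F. The test of a level within 2-fold used the same fit. An exact permutation test of 3 against 3 cannot go below a two-sided p of 0.1, so none was used. DESeq2 1.42.0 and voom of limma 3.58.1 were alternatives. Only the edgeR tests on 6 libraries were tried on simulated counts, which had the same spread for every gene and no library standing apart. CPM used TMM factors over the 12 bulk libraries. Undetected groups were set to 3 counts over the group for fold bounds, and intervals cover counting error only. Members, 48 gene lists with 891 distinct genes, and tests were chosen with earlier results of these data known. Lists are described by counts and medians, with no set test. Genes were named as the largest changes, the list members with the smallest adjusted p, and drivers and tissue markers by name. No gene passed both with all 6 libraries and without TM replicate 2 (0 genes), so the 8 largest rises and 8 largest falls without TM replicate 2 with a mean of at least 5 CPM and no overlap over 6 libraries were used. Other list members named were chosen after their values were seen. Promoters are RefSeq's on GRCm38.p6. The 2 single-cell samples were not used here. The TMP libraries, like those of subcutaneous TMPC, entered the TMM factors behind CPM and the fits of 12 and 11 bulk libraries. No TMP level is given. Some genes are not reported here.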

Additional observations from a re-analysis of the deposited data

How the results depend on the processing

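The number of genes called with all 6 libraries stayed at 0 with DESeq2 size factors, library totals, no filter, a stricter filter and the replicate block. It was 132 without TM replicate 2, 1 without orthotopic replicate 3 and 3759 without both, 4 with voom, 1328 with DESeq2 and 202 with all 12 libraries in the fit, and it ran from 0 to 132 over single libraries left out. The 132 calls became 280 with a stricter filter, 15 with voom, 2626 with DESeq2, 451 with 11 bulk libraries and 0 with the replicate block, and ran from 0 to 3759 over single libraries left out. These settings were chosen after seeing the data. The 4684 genes within 2-fold became 8064 without both libraries, 0 with the replicate block, 0 with a bound of 1.5-fold and 9104 with a bound of 3-fold, and ran from 0 to 6341 over single libraries left out. The test within 2-fold was not run with DESeq2. The cause was not tested. Deviations of same-numbered libraries correlated by 0.207, -0.403 and -0.453. The libraries that stand apart weigh on these values, which therefore cannot show whether the numbers pair the samples. Without TM replicate 2, 26 of 48 list medians moved beyond the spread between libraries and 24 of 69 named genes gained a call, while 12 uncalled ones changed sign and 0 called ones did. Genes were named in part for passing that test, so the gain in calls follows from the naming rule. Scaling moved the median of all genes by at most 0.045 on the log2 scale. Low counts limited genes near 0.134 to 0.201 CPM.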

Other observations

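The enzymes Ces2c, Nqo1 and Gsta1 and the genes Aldh1a2 and Eln, all chosen after their values were seen, were called higher in orthotopic TMPC. Ces2c, a carboxylesterase, was at 1.12, 0.134 and 1.01 CPM in TM and 44, 52.2 and 44.5 in orthotopic TMPC (log2 fold change 5.46 ± 0.23, edgeR adjusted p = 0.00787 without TM replicate 2). Nqo1, a quinone reductase, was at 5.0, 3.55 and 6.37 CPM in TM and 78.5, 152 and 81.1 in orthotopic TMPC (4.19 ± 0.42, adjusted p = 0.0411). Gsta1, a glutathione transferase, was at 12.4, 0 and 20.4 CPM in TM and 184, 253 and 131 in orthotopic TMPC (3.53 ± 0.41, adjusted p = 0.0411). Aldh1a2, which makes retinoic acid, was at 0.213, 2.54 and 0.366 CPM in TM and 32, 48 and 53.5 in orthotopic TMPC (7.21 ± 0.44, adjusted p = 0.0228). Eln, which encodes elastin, was at 43.4, 76.7 and 59.1 CPM in TM and 691, 562 and 318 in orthotopic TMPC (3.35 ± 0.42, adjusted p = 0.0445).

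Further genes of the naming rule passed the test in both directions. Aox3, an aldehyde oxidase, was at 40.7, 4.01 and 32.9 CPM in TM and 2.94, 1.86 and 2.06 in orthotopic TMPC (-4.00 ± 0.30, adjusted p = 0.0228). Gpnmb, a glycoprotein of macrophages and pigment cells, was at 123, 25.9 and 101 CPM in TM and 10.4, 23.4 and 13.9 in orthotopic TMPC (-2.82 ± 0.36, adjusted p = 0.0476), TM replicate 2 lying just above the highest orthotopic library. Raver2 and Vsig10l were the other falls (-3.54 ± 0.40 and -2.99 ± 0.35). Dgkb, a diacylglycerol kinase, was at 0.0532, 0.0669 and 0.137 CPM in TM and 91.5, 31.5 and 114 in orthotopic TMPC (9.56 ± 0.96, adjusted p = 0.0411). Gsdma2, a gasdermin of the stomach lining, had 3 counts over the TM libraries and was at 99.2, 64.6 and 23 CPM in orthotopic TMPC, a ratio of 1206 with a 95% counting interval from 412.3 to 5850.

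The remaining lists gave no call without TM replicate 2. Of 24 unfolded protein response genes 12 were within 2-fold in that test and 9 of 24 were higher in the 4-library test, with Hspa5, the chaperone BiP, at 344, 1098 and 445 CPM in TM and 652, 795 and 927 in orthotopic TMPC (4-library adjusted p = 0.0218). Of 20 PI3K and FOXO target genes 10 were within 2-fold without TM replicate 2, 4 were lower in the 4-library test, and 10 were lower in every orthotopic library than in every TM library, against 12.6% of all genes. Txnip, a brake on glucose uptake, was among them at 437, 696 and 516 CPM in TM and 248, 212 and 153 in orthotopic TMPC (4-library adjusted p = 0.00759). Within 2-fold without TM replicate 2 were also 9 of 24 p53 targets, 7 of 18 Yap and Tead targets, 7 of 24 cholesterol synthesis genes, 7 of 19 immediate early genes, 6 of 13 immune checkpoint genes, 4 of 32 chemokine and cytokine genes, 3 of 20 stem cell and Wnt target genes and 2 of 19 genes of mesenchymal transition. Over all genes this share was 39.7%, and the p53, Yap and Tead and immediate early lists were near it. The 4-library test called 12.6% of all genes higher and 11.3% lower. Of the Yap and Tead targets it called 7 lower and 1 higher, and of the p53 targets 5 higher and 5 lower. Its calls were 1 higher and 2 lower of 12 T cell genes, 2 lower of 12 dendritic cell genes, 1 lower of 8 B and plasma cell genes, 4 higher of 20 endothelial genes and 4 higher and 1 lower of 8 adipocyte genes. Liver genes gave 2 higher and 2 lower of 11, pancreas genes 3 higher of 3, mesothelial genes 3 higher and 3 lower of 7, skeletal muscle genes 2 higher of 8, neural and Schwann cell genes 2 higher and 1 lower of 10, and red blood cell genes 0 of 4.

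Promoter motifs were counted in other lists as a description. CCAAT occurred on either strand in 17 of 23 cell division genes with a promoter and in 41.1% of 27025 genes. TTTGAA occurred in 14 of those 23 and in 20.2% of all genes. CACGTG occurred in 6 of 23 ribosome biogenesis genes and in 8.09% of all genes. TGANTCA occurred in 1 of 15 basement membrane and integrin genes and in 8.97% of all genes.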
